A study of Mus musculus with 6 samples.

Results

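*Rpph1*, *Rmrp*, *Rprl2*, *Rprl3*, *Terc* and *Vaultrc5* are 6 short structural RNAs of the count table that are neither snoRNAs, miRNAs nor spliceosomal RNAs. They were taken by symbol, 6 of the 24421 symbols in the table, and all 6 were expressed above the filter on low counts. The table also holds others of this kind, among them *Rprl1* and *Bc1*, which are given below only for comparison. They were selected on their levels in these 6 libraries and on the correlation between those levels, both already known. Their levels, differences and correlations are therefore given as descriptions, without a test.

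RNA was sequenced from heads of E9.0 mouse embryos, in 3 libraries of embryos labelled wild-type (WT) and 3 of *Snrpb* ncc+/- mutants. Each library was made from 2 pooled heads of 1 genotype. Mutants carried 1 loxP-flanked copy of *Snrpb*, which codes for the SmB core protein of the spliceosome, and Wnt1-Cre2, which is active in neural crest cells and the neural tube, so that the other cells of the head kept both copies. The labels name both C57BL/6 and CD1 as background, list no treatment, and do not say whether WT embryos carried the loxP allele or the Cre. In pooled heads, fewer cells that make an RNA and less of that RNA in each cell cannot be told apart.

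RNase P and RNase MRP are RNA enzymes. RNase P, with the *Rpph1* RNA at its core, removes the 5′ leader from precursor tRNAs, while RNase MRP, with the *Rmrp* RNA, cuts the precursor of ribosomal RNA, and the complexes share most of their proteins. Mutations in human *RMRP* cause cartilage-hair hypoplasia, a skeletal dysplasia. *Terc* is the RNA that carries the template of telomerase, *Vaultrc5* is the RNA of the vault particle, and *Rprl2* and *Rprl3* are genes resembling *Rpph1*. *Rpph1*, *Rmrp* and vault RNAs are made by RNA polymerase III, and *Terc* by RNA polymerase II.

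The *Rpph1* family is shown first because the closest relation found among the levels lies within it. *Rpph1* (319 bases in Gencode M21, mm10, chr14:50807449-50807767, minus strand) holds a stretch of 21 bases that occurs in tandem, at positions 182 to 202 and 203 to 223 counted from its 5′ end, and *Rprl2* and *Rprl3* lack 21 bases of it. The first 257 bases of *Rpph1* (chr14:50807511-50807767) are given with this tandem repeat in capitals. Below them stand the stretches of *Rprl2* (chr3:22251374-22251609, plus strand) and *Rprl3* (chr8:3803123-3803358, minus strand) that align with it, with the bases that differ from *Rpph1* in capitals.
Rpph1: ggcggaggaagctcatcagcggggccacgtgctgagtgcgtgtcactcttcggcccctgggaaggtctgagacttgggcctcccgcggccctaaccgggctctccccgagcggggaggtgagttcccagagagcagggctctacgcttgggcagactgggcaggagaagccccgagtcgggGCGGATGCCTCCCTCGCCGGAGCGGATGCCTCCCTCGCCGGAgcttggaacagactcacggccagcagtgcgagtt
Rprl2: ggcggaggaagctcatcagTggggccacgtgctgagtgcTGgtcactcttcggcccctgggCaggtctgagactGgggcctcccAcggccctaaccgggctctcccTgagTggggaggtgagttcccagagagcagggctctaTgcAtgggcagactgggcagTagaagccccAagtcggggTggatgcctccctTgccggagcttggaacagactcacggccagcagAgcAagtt
Rprl3: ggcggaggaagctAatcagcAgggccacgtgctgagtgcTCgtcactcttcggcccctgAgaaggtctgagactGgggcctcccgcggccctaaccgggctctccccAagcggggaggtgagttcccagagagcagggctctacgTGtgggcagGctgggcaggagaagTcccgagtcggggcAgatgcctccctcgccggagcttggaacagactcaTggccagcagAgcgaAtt
Over these stretches *Rprl2* was 93.2% identical to *Rpph1*, with 16 differing bases, and *Rprl3* was 93.6% identical, with 15. The longest runs of identical bases were 32 and 37 bases, and neither gene shared a run of 50 bases with *Rpph1*. Another gene of this kind, *Rprl1*, was 91.1% identical, with 21 differing bases.

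*Rmrp* is shown whole, since its mean level per length in WT was the highest among the tested genes with a length in the annotation. It lies on mm10 at chr4:43492788-43493058 on the minus strand and has 271 bases (a second entry of the annotation under the same symbol has 281).
Rmrp: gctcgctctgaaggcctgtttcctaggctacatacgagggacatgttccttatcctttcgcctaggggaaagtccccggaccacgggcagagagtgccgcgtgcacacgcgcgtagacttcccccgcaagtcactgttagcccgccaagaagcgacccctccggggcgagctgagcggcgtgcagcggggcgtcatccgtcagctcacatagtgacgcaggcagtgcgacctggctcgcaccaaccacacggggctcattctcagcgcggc
It shared no run of 25 bases with *Rpph1*. *Terc* (chr3:96414437-96414859, minus strand, 423 bases in Gencode M21 and 397 in RefSeq) is shown by its first 100 bases and its last 60 bases. Capitals mark the letters CTAACCCT of the telomere template, at positions 29 to 36 of the Gencode entry, and the ACA box 3 bases before the 3′ end. *Terc* has this box in common with box H/ACA snoRNAs. The RefSeq entry has the same 3′ end but its 5′ end is at chr3:96414833. The first bases shown thus lie outside the RefSeq entry, and the template lies nearer to its 5′ end.
Terc 5′ part: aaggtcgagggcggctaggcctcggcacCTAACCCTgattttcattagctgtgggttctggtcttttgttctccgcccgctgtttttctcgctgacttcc
Terc 3′ part: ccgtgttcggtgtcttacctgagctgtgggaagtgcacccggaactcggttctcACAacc

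The bases upstream of *Rpph1* and *Rmrp* are shown because RNA polymerase III starts such genes from elements that lie before the RNA. They were read from the RefSeq promoter windows (GRCm38.p6) of the neighbouring genes *Parp2* and *Ccdc107*, on the strand of the RNA gene. The capitals mark matches on either strand to the octamer ATTTGCAT, to ACCNTAA, letters of the proximal sequence element, and to TATAA. The first window covers bases 120 to 1 upstream of *Rpph1* (chr14:50807768-50807887), and the second bases 236 to 57 upstream of *Rmrp* (chr4:43493115-43493294).
Rpph1 upstream: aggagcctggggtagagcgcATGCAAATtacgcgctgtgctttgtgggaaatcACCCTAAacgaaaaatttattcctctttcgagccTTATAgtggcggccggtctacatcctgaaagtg
Rmrp upstream: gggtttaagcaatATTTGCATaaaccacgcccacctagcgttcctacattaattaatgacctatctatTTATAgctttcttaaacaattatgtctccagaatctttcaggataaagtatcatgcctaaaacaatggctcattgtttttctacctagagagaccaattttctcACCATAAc
*Rpph1* had the octamer at 100 to 93 bases upstream, ACCCTAA at 67 to 61 and TATAA on the other strand at 33 to 29. *Rmrp* had the octamer at 223 to 216, TATAA on the other strand at 168 to 164 and ACCATAA at 64 to 58. The search did not cover the bases between base 57 and *Rmrp*, and so not the positions where *Rpph1* had TATAA. Of 32851 RefSeq promoter windows of 300 bases, 1.74% held the octamer, 6.98% ACCNTAA and 24.87% TATAA, on either strand. The stretches searched here were shorter, with 120 bases for *Rpph1* and 180 for *Rmrp*. A match to these letters is a description and not a site in use.

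The libraries held 36378803 to 74909774 counts, and all 10 genes used as markers of the head (among them *Otx2*, *Sox2* and *Twist1*) were expressed in every library, with a summed level of 490.6 to 524.4 CPM (counts scaled to the depth of each library) in WT and 470.8 to 510.2 CPM in mutants. WT replicate 1 stood apart from the other libraries. It had the highest summed level of 4 erythroid genes (1468 CPM, against 860.4 to 1189 in the others), the lowest of 4 cardiac genes (2.97 CPM, against 9.35 to 45.1), and the lowest level of 5 of the 6 RNAs. Values without it are therefore given beside the difference of each of the 6 RNAs. In the whole table, edgeR's quasi-likelihood test called 1 of 15584 tested genes at an adjusted *P* of 0.05 (0.00642%), and 1311 genes had an unadjusted *P* under 0.05 (8.41%). All mutant libraries lay above all WT libraries for 8.32% of the tested genes, and DESeq2 called 84 of 12908 genes (0.651%).

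*Rpph1*, the catalytic RNA of RNase P, had 38401, 167204 and 66609 counts in WT replicates 1 to 3 and 147694, 301375 and 117013 in mutant replicates 1 to 3. Scaled to depth by TMM these were 1055, 2848 and 1800 CPM in WT and 3497, 3965 and 1760 CPM in mutants. Mutant replicates 1 and 2 were above all WT libraries, but mutant replicate 3 lay below WT replicates 2 and 3, so the groups overlapped. The mean was 1901 ± 901 CPM in WT heads (SD, n = 3) and 3074 ± 1162 CPM in mutant heads (SD, n = 3), a fitted log2 fold change of 0.69 (SE 0.51). It was 0.40 without WT replicate 1 and 1.11 without WT replicate 2.

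*Rprl3* followed the same order of libraries, at a level far below that of *Rpph1*. It had 47.3, 125.3 and 84.1 CPM in WT and 151.8, 154.6 and 75.2 CPM in mutants. Mutant replicate 3 was again the lowest mutant library and below WT replicates 2 and 3. The log2 fold change was 0.56 (SE 0.48), and 0.27 without WT replicate 1. *Rprl2* was a rare RNA, with 64, 254 and 82 counts in WT and 164, 497 and 152 in mutants. This came to 1.76, 4.33 and 2.22 CPM in WT and 3.88, 6.54 and 2.29 CPM in mutants. WT replicate 2 lay above mutant replicates 1 and 3, and the log2 fold change was 0.59 (SE 0.50). It was 0.35 without WT replicate 1 and 0.12 without mutant replicate 2, the library with the most counts.

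*Rmrp* was close to *Rpph1* in level but not in its order of libraries. It had 55990, 146021 and 114772 counts in WT and 144355, 242397 and 181978 in mutants, or 1538, 2487 and 3102 CPM in WT and 3418, 3189 and 2738 CPM in mutants. WT replicate 1 was low and WT replicate 3 was above mutant replicate 3, while the mutant libraries lay close together. The mean was 2376 ± 788 CPM in WT heads (SD, n = 3) and 3115 ± 346 CPM in mutant heads (SD, n = 3), with a log2 fold change of 0.39 (SE 0.28). It was 0.15 without WT replicate 1.

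*Terc*, the telomerase RNA, had 395, 1216 and 611 counts in WT and 913, 1340 and 1358 in mutants. Its level was 10.8, 20.7 and 16.5 CPM in WT and 21.6, 17.6 and 20.4 CPM in mutants. WT replicate 2 lay within the range of the mutants, and WT replicate 1 was lowest. The log2 fold change of 0.30 (SE 0.23) was 0.08 without WT replicate 1. *Terc* was low where erythroid genes were high. Over the 6 libraries Pearson's *r* between its log2 CPM and the summed level of 4 erythroid genes was -0.93 (Spearman's rho -0.89). It was -0.97 without WT replicates 1 and 3, which lay farthest from the median of *Terc*. Correlations with erythroid genes were not among the planned comparisons. For the other RNAs this *r* was -0.52 (*Rpph1*), -0.68 (*Rmrp*), -0.28 (*Rprl2*), -0.57 (*Rprl3*) and 0.11 (*Vaultrc5*). Between *Terc* and the 4 cardiac genes *r* was 0.76 (rho 0.37). The 4 erythroid genes were expressed in every library, at 860.4 to 1468 CPM in WT and 868.7 to 1189 CPM in mutants in sum, and their part in the level of *Terc* was not tested.

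*Vaultrc5* (143 bases in Gencode M21 and 345 in RefSeq, mm10 chromosome 18, 36801866 to 36802008 in Gencode M21, plus strand) was at the edge of detection. It had 19, 30 and 9 counts in WT and 21, 43 and 40 in mutants, or 0.522, 0.511 and 0.243 CPM in WT and 0.497, 0.566 and 0.602 CPM in mutants. It was the 1 RNA for which WT replicate 1 was not the lowest library, and the groups overlapped. The log2 fold change was 0.37 (SE 0.30). It was 0.49 without WT replicate 1 and 0.11 without WT replicate 3, the library with 9 counts.

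**Figure D1:**
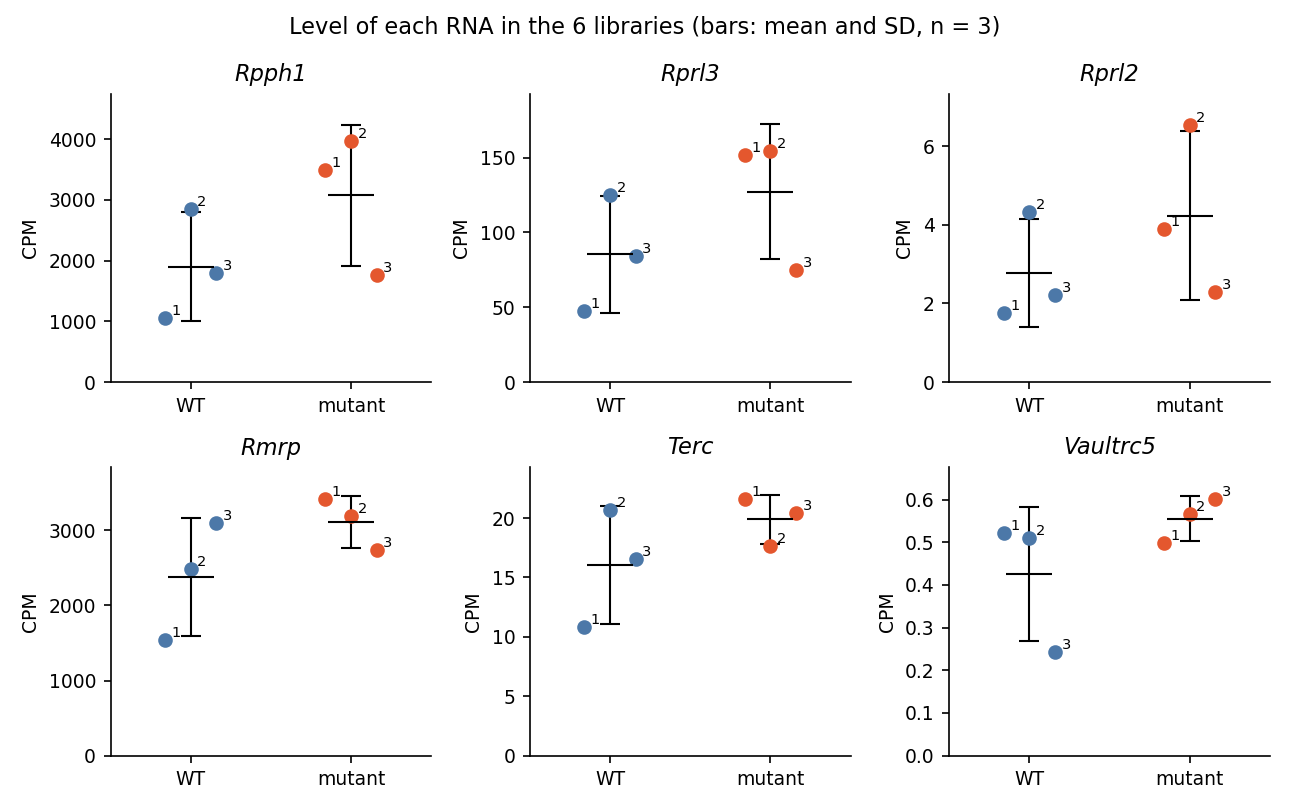
Level of each RNA (y axis, CPM after TMM scaling, starting at 0) in WT (blue) and mutant libraries (red), with the replicate number beside each point and bars for the mean and SD of 3 libraries. Mean levels were higher in mutants for all 6 RNAs, and in each panel points of the 2 groups overlap, with *Rpph1* at 1055 to 2848 CPM in WT and 1760 to 3965 CPM in mutants.

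All 6 RNAs thus had a fitted difference above 0, between 0.30 and 0.69 with a median of 0.48, where the median over all tested genes was 4e-04. For none of the 6 did all mutant libraries lie above all WT libraries, as was found for 8.32% of the tested genes. Leaving out any 1 library kept every fitted value above 0, with the lowest at 0.08 for *Terc* and the highest at 1.11 for *Rpph1*. The signs of the 6 values are not separate observations, because the RNAs were measured in the same libraries and the *Rpph1* family may share reads.

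Per length, the RNAs spanned more than 3 orders of magnitude. *Rmrp* was at 8454 ± 2804 CPM per kb in WT and 11080 ± 1233 in mutants (SD, n = 3), and ranked 1 in WT among 15017 tested genes with a length in the annotation. *Rpph1*, at 5959 ± 2823 CPM per kb in WT and 9637 ± 3641 in mutants, ranked 2. The ranges of *Rmrp* and *Rpph1* overlapped, and *Rpph1* was the higher of the pair in replicate 2 of both genotypes. *Rn45s*, the most abundant of the RNAs considered here by CPM, had no length and no rank. After them came *Rprl3* with 295 CPM per kb in WT (rank 145), *Terc* with 37.9 (rank 1293), *Rprl2* with 9.54 (rank 4829) and *Vaultrc5* with 2.97 (rank 8477). The ranges of these 4 over the libraries did not overlap with those of their neighbours in the order. Lengths here are those of Gencode M21. RefSeq gives 345 bases for *Vaultrc5*, 238 for *Rprl2* and 235 for *Rprl3*, and levels per length were not computed with these. The RNA was purified on columns that hold long RNAs better than short ones, and the effect on these levels was not tested.

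Together *Rpph1* and *Rmrp* took 0.259%, 0.531% and 0.486% of all counts in WT and 0.689%, 0.726% and 0.450% in mutants. By raw counts *Rpph1* was between the 6th highest gene, in mutant replicate 2, and the 79th, in WT replicate 1. *Rmrp* kept to a narrower span, from the 9th to the 31st.

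The spread of these RNAs between libraries was wide. The SD of log2 CPM over the 6 libraries was 0.72 for *Rpph1*, 0.71 for *Rprl2* and 0.67 for *Rprl3*, above 98.2%, 98.1% and 97.8% of the tested genes, whose median was 0.11. It was 0.42 for *Rmrp*, 0.37 for *Terc* and 0.43 for *Vaultrc5*, above 91.6%, 88.9% and 92.2%. Counting error was small beside this for the abundant RNAs, with a log2 SD of 0.0048 for *Rpph1*, 0.0042 for *Rmrp* and 0.051 for *Terc*, but came to 0.32 for *Vaultrc5*. The ratio of the highest to the lowest library was 3.76 for *Rpph1*, 3.72 for *Rprl2*, 3.27 for *Rprl3*, 2.22 for *Rmrp* and 1.99 for *Terc*.

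The spread was found within the genotypes. In WT alone the log2 SD was 0.72 for *Rpph1* and 0.52 for *Rmrp*. In mutants it was 0.63 for *Rpph1* but 0.16 for *Rmrp*, 0.15 for *Terc* and 0.13 for *Vaultrc5*. The wider spread of *Rmrp* and *Terc* in WT came with the low value of WT replicate 1, and that of *Vaultrc5* with the 9 counts of WT replicate 3. The SD of *Vaultrc5* in mutants was below its counting error, and differences in spread between the groups were not tested.

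**Figure D2:**
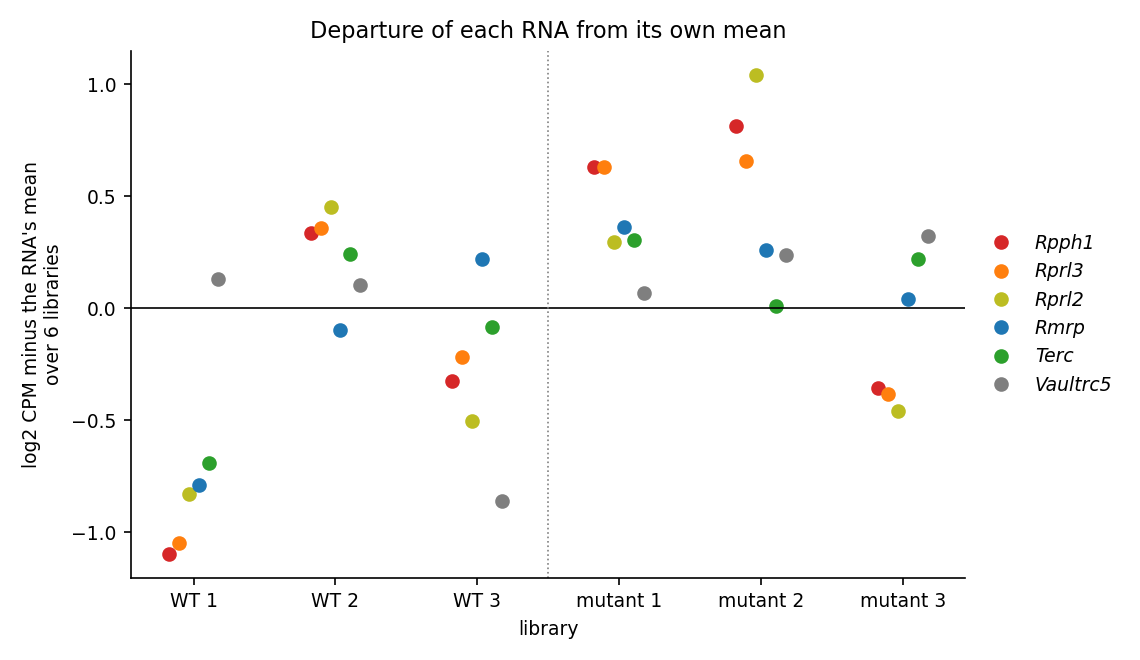
Departure of each RNA from its own mean over the 6 libraries (y axis, log2 CPM) by library (x axis), one point per RNA. *Rpph1*, *Rprl3* and *Rprl2* have the same sign in each library, from -1.10, -1.05 and -0.83 in WT replicate 1 to 0.81, 0.66 and 1.04 in mutant replicate 2, where *Terc* is at 0.01. In mutant replicate 1 *Rprl2* (0.30) lies nearer to *Terc* (0.30) and *Rmrp* (0.36) than to *Rpph1* and *Rprl3* (both 0.63).

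The levels of the *Rpph1* family moved together. Over the 6 libraries Pearson's *r* of log2 CPM was 0.995 between *Rpph1* and *Rprl3* (Spearman's rho 1.0), 0.944 between *Rpph1* and *Rprl2* (rho 0.886) and 0.917 between *Rprl2* and *Rprl3* (rho 0.886). Without WT replicate 1 and mutant replicate 2, the libraries farthest from the median, these were 0.994, 0.928 and 0.918. After the group means were subtracted they were 0.996, 0.933 and 0.895, so the relation was present within genotypes. The points share their library, its depth and its preparation, and no *P* is given since the RNAs were chosen with this correlation known.

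The ratio of *Rprl3* to *Rpph1* was nearly constant. *Rprl3* had 4.48%, 4.4% and 4.67% of the counts of *Rpph1* in WT and 4.34%, 3.90% and 4.27% in mutants, a range of 1.2-fold. *Rprl2* had 0.167%, 0.152% and 0.123% in WT and 0.111%, 0.165% and 0.13% in mutants, a range of 1.5-fold. *Rprl1*, nearly as close to *Rpph1* in sequence, had 1 count in all 6 libraries, where a count of 0 allows up to 3 counts. Reads of near-identical copies can be placed at the wrong gene, and the counts do not show from which copy a read came. The levels of *Rprl2* and *Rprl3* are uncertain for this reason, and misplaced reads were not tested, since the reads were not analysed here.

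**Figure D3:**
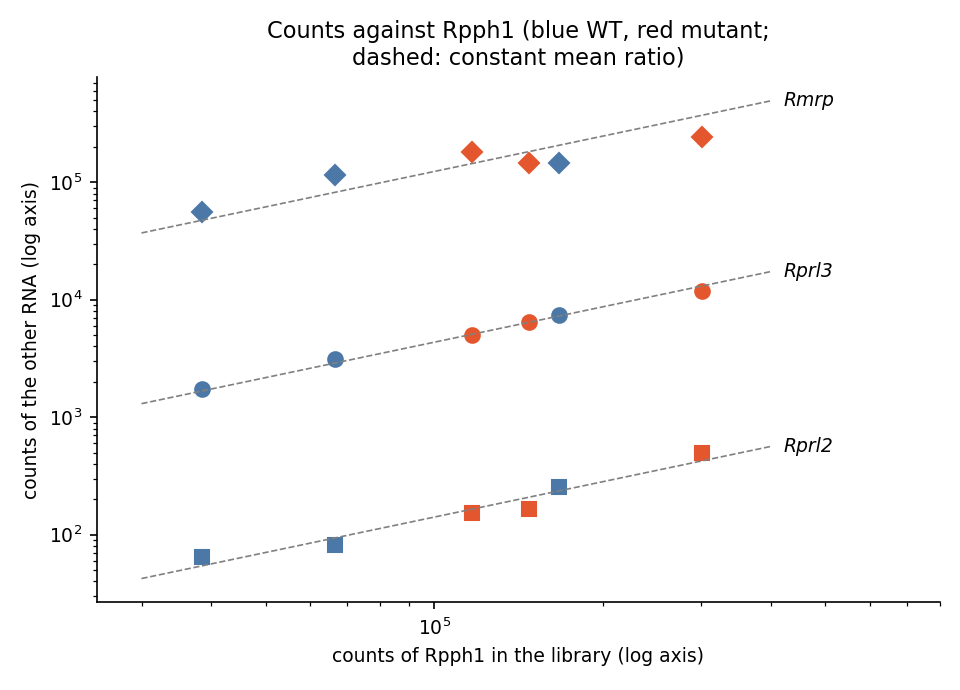
Counts of *Rmrp* (diamonds), *Rprl3* (circles) and *Rprl2* (squares) against the counts of *Rpph1* in each library (both axes logarithmic), WT in blue and mutants in red, with dashed lines at the mean ratio over the 6 libraries. *Rprl3* keeps to its line, at 3.90% to 4.67% of *Rpph1*, while *Rmrp* departs from it, at 80.4% to 172%.

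*Rmrp* followed *Rpph1* less closely. Its counts were 146%, 87.3% and 172% of those of *Rpph1* in WT and 97.7%, 80.4% and 156% in mutants. Pearson's *r* was 0.782 (rho 0.771), and 0.241 without WT replicate 1 and mutant replicate 2. Between *Rpph1* and *Terc* *r* was 0.738 (rho 0.543), and 0.673 without the same libraries. Between *Rmrp* and *Terc* it was 0.804 (rho 0.486), and -0.901 over the 4 libraries left without WT replicate 1 and mutant replicate 1. Without WT replicate 1 alone, *r* of *Rpph1* with *Rmrp* and with *Terc*, and of *Rmrp* with *Terc*, was 0.374, 0.214 and -0.244. The relations of *Rmrp* with *Rpph1* and with *Terc* thus rested on that library, while that of *Rpph1* with *Terc* depended on which libraries were left out. *Vaultrc5* had an *r* of 0.187 with *Rpph1* and -0.225 with *Rmrp* (rho -0.143 and -0.257).

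Over all 15 pairs *r* lay between -0.225 and 0.995 with a median of 0.738. The 3 pairs above 0.9 were those within the *Rpph1* family. The mean of 0.559 was 0.384 without WT replicate 1.

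**Figure D4:**
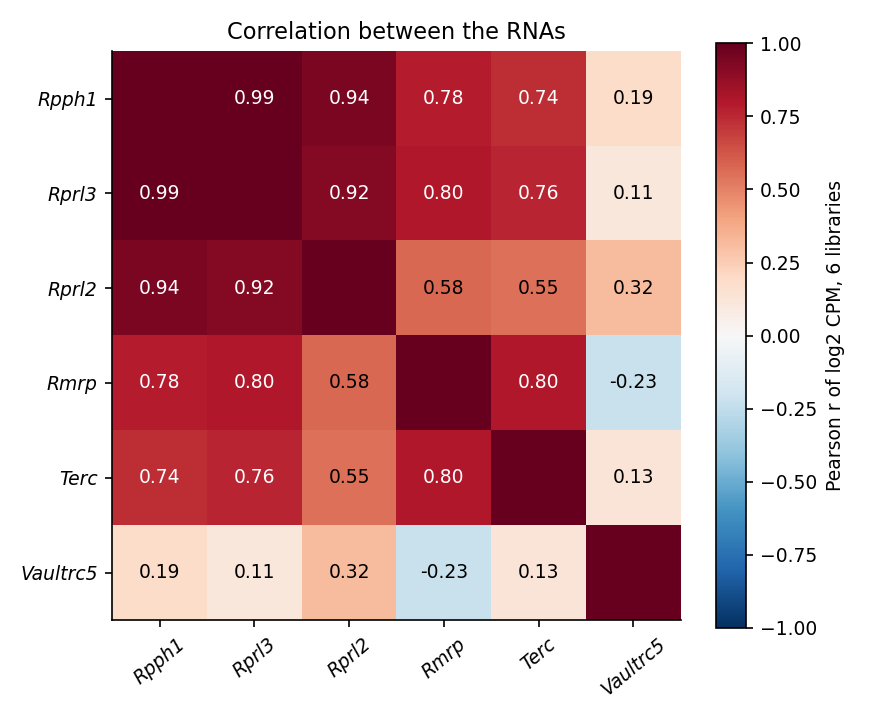
Pearson's *r* of log2 CPM over the 6 libraries for each pair of RNAs (rows and columns), from blue (-1) through white (0) to red (1). The block of *Rpph1*, *Rprl3* and *Rprl2* is at 0.92 or above, and *Vaultrc5* lies between -0.225 and 0.319 with the other RNAs.

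Genes with the most similar pattern were found by Pearson's *r* of log2 CPM against all 15583 other tested genes, of which 0.783% to 2.33% had an *r* above 0.9, depending on the RNA. For *Rpph1* these were *Rprl3* (*r* 0.995), *Rpl5*, a ribosomal protein gene (0.994), and *Gng5*, a G protein subunit (0.992). *Rpl5* and *Gng5*, which also came first and second for *Rprl3* (0.997 and 0.996), varied far less than the RNAs, with *Rpl5* between 1056 and 1139 CPM and *Gng5* between 99.7 and 110.5. The nearest to *Rmrp* were *Zfp141* (0.989) and *Ccdc125* (0.988), and to *Rprl2* *Dimt1* (0.993), *Sclt1* (0.990) and *Gbp3* (0.986). For *Terc* they were *1700125G22Rik* (0.992), *Syde2* (0.990) and *Slc35f2* (0.988). Each of the 6 RNAs had 122 or more genes above 0.9. No genes are named for *Vaultrc5* because it had fewer than 10 counts in a library.

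The snoRNAs are other short RNAs of the count table, and many of them guide the modification of ribosomal RNA. The 119 snoRNA and scaRNA genes of the table summed to 354.5, 397.1 and 362 CPM in WT and 471.3, 475.2 and 415.6 CPM in mutants. This sum did not overlap between the groups, and its log2 ratio was 0.29 (two-sided exact permutation test, *P* = 0.1, the smallest that 3 against 3 libraries allow). The sum of the 9 scaRNA genes did overlap, with 112.6, 139.2 and 120.7 CPM in WT and 154.3, 152.2 and 126.5 CPM in mutants (two-sided exact permutation test, *P* = 0.2). Gene by gene, 44 of 96 tested snoRNAs had all mutant libraries above all WT libraries, against 8.32% of all tested genes. All mutant libraries lay below for 1 of the 96, against 1079 of the 15584 tested genes. In edgeR 0 of the 96 were called and 35 had an unadjusted *P* under 0.05, against 8.41% of all tested genes. DESeq2 called 3, against 0.651% of all genes. Across libraries *r* between *Rpph1* and the sum of the scaRNA genes was 0.975 (rho 0.886), and 0.968 without WT replicate 1 and mutant replicate 2. This sum includes *Scarna10*, which ran from 8.21 to 30.1 CPM over the libraries, and its part in this *r* was not tested. Between *Rpph1* and all snoRNAs *r* was 0.864 (rho 0.829), and 0.699 without the same libraries. *Rpph1* and total counts gave an *r* of 0.553 (rho 0.6), and -0.138 without these libraries.

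Of the 5 tested genes within 5000 bases of an RNA, 4 had log2 fold changes between -0.08 and -0.01. The other, *Ccnb1ip1*, a gene of meiotic recombination, overlaps *Rpph1* by 284 bases on the same strand, so that reads there lie within both genes. It was at 0.718 ± 0.202 CPM in WT heads and 1.16 ± 0.224 CPM in mutant heads (SD, n = 3), with all mutant libraries above all WT libraries, a log2 fold change of 0.68 (SE 0.26) and an adjusted *P* of 0.518 in edgeR. *Parp2*, a gene of DNA repair that starts 73 bases away on the opposite strand, had a log2 fold change of -0.02, and its SD of log2 CPM was 0.043. *Ccdc107*, which overlaps *Rmrp* by 164 bases on the opposite strand, had -0.04. Whether counting used the strand is not given in the sources used here, and without it reads of this pair cannot be told apart. *Arhgef39*, 3078 bases from *Rmrp*, had -0.08, and *Zmat2*, next to *Vaultrc5*, had -0.01. In edgeR 0 of these 5 genes were called. There *Ccnb1ip1* alone had an unadjusted *P* under 0.05 (0.0274), 1 of 5 against 8.41% of all tested genes. It was also the 1 gene of the 5 whose groups did not overlap, against 8.32% of all tested genes with all mutant libraries above. DESeq2 called 0 of the other 4 and gave *Ccnb1ip1* no adjusted *P*.

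The 11 genes of the RNase P and RNase MRP proteins were measured beside their RNAs. In edgeR 0 of 11 were called, 0 had an unadjusted *P* under 0.05, against 8.41% of all genes, and DESeq2 called 0. Their median log2 fold change was 0.05, with 8 fitted higher and 3 lower, and their median SD over the libraries was 0.08, below that of all genes. The lowest values were those of *Rpp21* (-0.08) and *Pop5* (-0.02), and the highest those of *Rpp25* (0.14) and *Pop4* (0.30, SE 0.28). *Pop4*, which codes for a subunit common to both enzymes, had 59.1, 48.9 and 31.6 CPM in WT and 65.5, 62.7 and 43.7 CPM in mutants, with the lowest value in each genotype in replicate 3. *Pop7*, a subunit that binds the RNA, was the 1 gene of the 11 whose groups did not overlap, at a log2 fold change of 0.13. This is a share near the 8.32% of all tested genes for which all mutant libraries lay above all WT libraries.

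Other enzymes that finish the ends of tRNAs, and the mitochondrial RNase P that works without an RNA, made a list of 7 genes. None was called in edgeR or DESeq2 (0 of 7). Beside 8.41% of all tested genes, 1 of the 7 had an unadjusted *P* under 0.05 in edgeR. This was *Trmt10c*, a subunit of the mitochondrial enzyme, with 50.6 ± 2.26 CPM in WT heads and 54.9 ± 1.39 CPM in mutant heads, a log2 fold change of 0.12 (SE 0.05) and an adjusted *P* of 0.581 in edgeR. *Trnt1*, which adds CCA to tRNAs, had 0.08. The lowest were *Elac2*, which cuts the 3′ end, at -0.05, and *Hsd17b10*, another subunit of the mitochondrial enzyme, at -0.01. All mutant libraries lay above all WT libraries for 3 of the 7, against 8.32% of all tested genes. This share was not tested.

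Of 12 genes for the telomerase proteins and for the making of its RNA, 0 were called in edgeR. At an unadjusted *P* under 0.05 in edgeR there was 1, against 8.41% of all tested genes. DESeq2 called 1, against 0.651% of all genes. The gene in both cases was *Nop10*, a subunit shared with the box H/ACA snoRNPs. It had 85.4, 87.1 and 87.4 CPM in WT and 103.3, 99.95 and 96.6 CPM in mutants, without overlap, and a log2 fold change of 0.20 (SE 0.04). Its adjusted *P* was 0.306 in edgeR and 0.0356 in DESeq2. *Tert*, the reverse transcriptase, was at 9.61 ± 1.15 CPM in WT heads and 9.06 ± 1.24 CPM in mutant heads (SD, n = 3), a log2 fold change of -0.08. *Wrap53* had -0.07 and *Tgs1*, which caps the RNA, 0.02. *Nop10* was the 1 gene of the 12 whose groups did not overlap, near the 8.32% of all tested genes with all mutant libraries above.

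For the vault, 0 of 3 protein genes were called by edgeR or DESeq2. In edgeR 1 of the 3 had an unadjusted *P* under 0.05, against 8.41% of all tested genes. *Tep1*, a protein of the vault that also binds the telomerase RNA, was at 16.2 ± 1.87 CPM in WT heads and 13.8 ± 1.06 CPM in mutant heads, with a log2 fold change of -0.23 (SE 0.10), an unadjusted *P* of 0.0452 and an adjusted *P* of 0.569 in edgeR. *Mvp*, the major vault protein, had 0.11 and *Parp4* 0.16, both with an SE above the value.

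**Figure D5:**
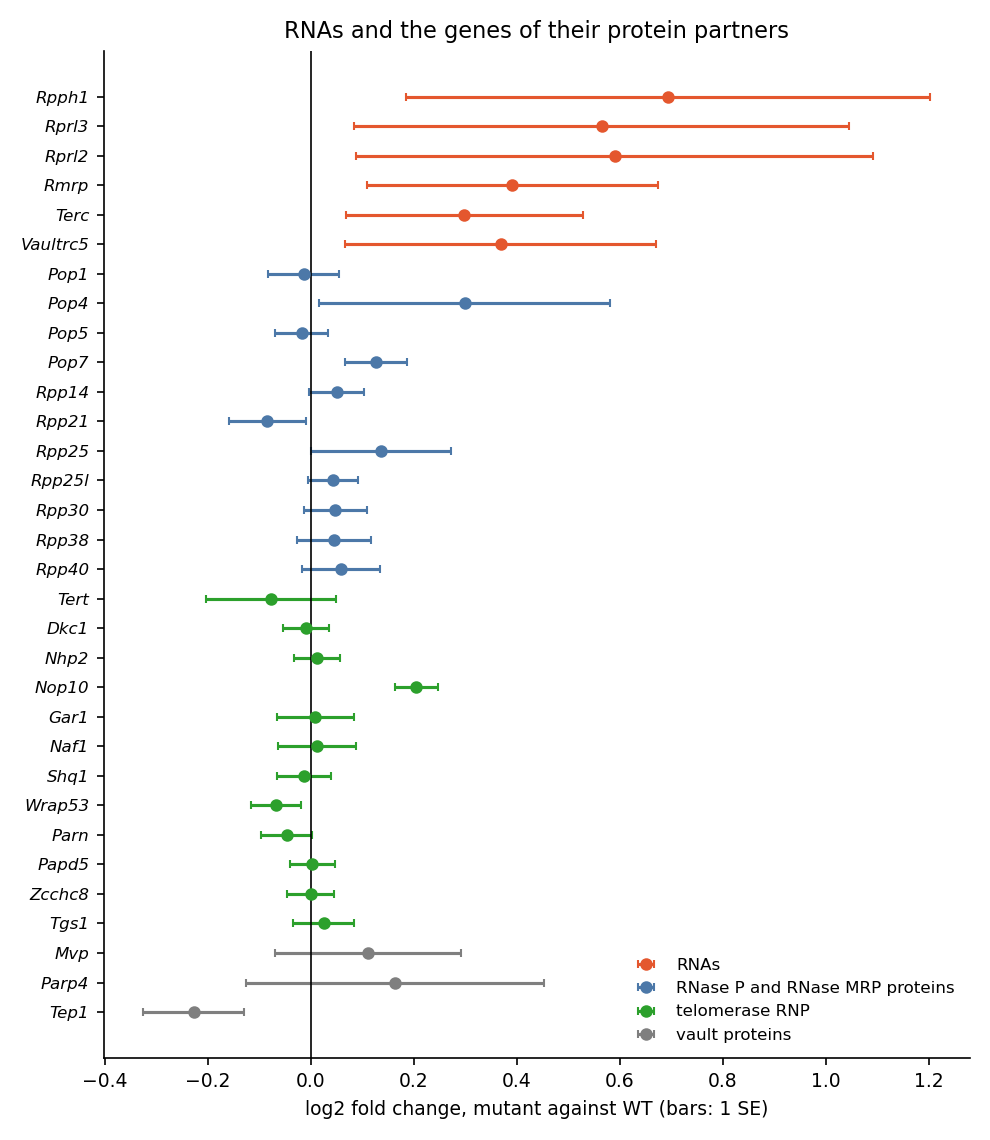
Fitted log2 fold change, mutant against WT (x axis), with bars of 1 SE, for the 6 RNAs (red) and the genes of the RNase P and RNase MRP proteins (blue), telomerase (green) and vault (grey). The RNAs lie between 0.30 and 0.69 with wide bars, while the protein genes lie between -0.23 (*Tep1*) and 0.30 (*Pop4*).

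The genes of RNA polymerase III and its factors had a median log2 fold change of 0.01 over 28 genes, with 15 fitted higher and 13 lower. In edgeR and in DESeq2 0 of 28 were called, and 3 had an unadjusted *P* under 0.05 in edgeR, a share near the 8.41% of all tested genes. *Snapc4*, the subunit of the complex that binds the proximal sequence element, had 0.20 (SE 0.07, adjusted *P* = 0.481 in edgeR), and *Polr3f*, a subunit of the polymerase, 0.18 (SE 0.06, adjusted *P* = 0.48). *Polr3gl* (-0.20, SE 0.15) and *Gtf3c1* (-0.15, SE 0.07) were lowest. All mutant libraries lay above all WT libraries for 5 of the 28, against 8.32% of all tested genes. They lay below for 1 of the 28, against 1079 of the 15584 tested genes. These shares were not tested.

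Of 12 other structural RNA genes listed, 4 were in the table and 2 passed the filter, of which edgeR called 0, with 0 at an unadjusted *P* under 0.05. DESeq2 did not call *Rn45s* and gave *Bc1* no adjusted *P*. *Rn45s*, the ribosomal RNA precursor, was at 24502 ± 1266 CPM in WT heads and 24797 ± 4446 CPM in mutant heads (SD, n = 3), a log2 fold change of 0.02. Ribosomal RNA was depleted from these libraries, so these values are what depletion left and not the level of the precursor. *Bc1*, a neuronal RNA made by RNA polymerase III, had 7 to 27 counts and a log2 fold change of 0.47 (SE 0.37, adjusted *P* = 0.753 in edgeR). The 7SK, 7SL, Y and 5S RNAs were not analysed here. Among 10 genes for the proteins of such RNAs, 0 were called by either tool. In edgeR 1 of the 10 had an unadjusted *P* under 0.05, against 8.41% of all tested genes. *Trove2*, which codes for the Y RNA binding protein Ro60, was at 153 ± 11.7 CPM in WT heads and 132 ± 6.54 CPM in mutant heads, a log2 fold change of -0.21 (SE 0.06, adjusted *P* = 0.433 in edgeR). *Srp9*, of the signal recognition particle, had -0.20 (SE 0.17), and the 7SK proteins *Larp7* and *Mepce* each had 0.06. All mutant libraries lay below all WT libraries for 2 of the 10, against 1079 of the 15584 tested genes, and above for 0. These shares were not tested.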

How the data were processed

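Per the labels and the methods of the study, total RNA of pooled heads was extracted with RNeasy columns, ribosomal RNA was depleted, and stranded paired-end libraries were sequenced. The deposited table holds raw counts of reads for each gene symbol, not normalized, which the authors made on mm10 with STAR. The submitters' processing notes name featureCounts and the methods name HTSeq as the counter. Neither gives the strand setting or the treatment of reads with several matches, which bears on *Rpph1* and its copies and on overlapping genes.

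Groups (3 WT and 3 mutant libraries) follow the genotype label. Labels do not tie replicates to single animals beyond the pooling of heads, and *P* values measure the spread between these pools. Counts were scaled by TMM in edgeR (version 4.0.16, R version 4.3.3), genes were kept by filterByExpr (15584 of 24421), and mutants were tested against WT with a two-sided quasi-likelihood test, Benjamini-Hochberg adjusted over all tested genes, with a threshold of 0.05. The test was checked on counts simulated with the same spread setting for every gene. That check does not cover RNAs that vary as widely between libraries as those of this report. DESeq2 (version 1.42.0) was the alternative. Log2 CPM used a prior count of 2. Lengths and positions were taken from Gencode M21, RNA sequences from its transcripts, and promoter windows from RefSeq. Figures were drawn with matplotlib (version 3.10.9).

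The RNAs and the gene lists were chosen with earlier results of these data known. Genes named are the 6 RNAs, list genes that were called, the 2 largest and 2 smallest log2 fold changes of each list, tested neighbours within 5000 bases, and for each RNA with at least 10 counts in every library the 3 genes of highest *r*. *Pop7*, *Rprl1* and *Scarna10* fall outside this rule and were named after their values were seen, and 1 gene that the rule names is not reported here.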

Additional observations from a re-analysis of the deposited data

How the results depend on the processing

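The fitted log2 fold changes of the 6 RNAs stayed above 0 under DESeq2, DESeq2 size factors, library size, no filter and each library left out. For *Rpph1* they ran from 0.399 to 1.107 with a library left out, for *Rmrp* from 0.152 to 0.630, for *Rprl2* from 0.118 to 1.099, for *Rprl3* from 0.271 to 0.952, for *Terc* from 0.080 to 0.536 and for *Vaultrc5* from 0.113 to 0.546. No label pairs the libraries by replicate number. Same-numbered libraries had correlations of their departures from the group means of 0.169, 0.032 and 0.36, against -0.245 to 0.088 for unlike numbers. With the replicate block *Rpph1* had 0.717, *Rmrp* 0.442, *Rprl2* 0.589, *Rprl3* 0.588, *Terc* 0.330 and *Vaultrc5* 0.399, and edgeR again called 1 gene. WT replicate 2 correlated better with mutant replicate 1 (0.039) than with its own number. The SE of *Rprl2* was 0.205 with the block and 0.503 without it. Whether same-numbered libraries share a batch was not tested. The count of genes called over the table was 1 in edgeR, 84 in DESeq2 and 11 without a filter beyond 1 count. It was between 0 and 6 with a library left out, with 6 without WT replicate 1, 5 without mutant replicate 1 and 0 without any 1 of the other libraries. Among the telomerase genes DESeq2 called 1 and edgeR 0. The mean *r* over the 15 pairs of RNAs, 0.559, was 0.436 as Spearman's rho, 0.392 for departures from the group means, and between 0.384 (without WT replicate 1) and 0.617 with a library left out. The cause of these changes was not tested. The summed snoRNA level had a log2 ratio of 0.257 to 0.350 with a library left out. With 3 libraries a group, an SE of 0.51 for *Rpph1* limits what can be seen more than depth does, while for *Vaultrc5* counting error alone is of the order of its difference.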

Other observations

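*Scarna10*, a scaRNA gene named here after its values were seen, varied as widely as *Rpph1*. It had 8.21, 21.3 and 17.1 CPM in WT and 22.1, 30.1 and 8.95 CPM in mutants, an SD of log2 CPM of 0.75 over the 6 libraries. Its order of libraries was that of *Rpph1* and *Rprl3* (Spearman's rho 1.0 with each over 6 libraries), and Pearson's *r* with *Rpph1* was 0.916, or 0.778 without WT replicate 1 and mutant replicate 2. Its groups overlapped, and its log2 fold change was 0.38 (SE 0.59, adjusted *P* = 0.891 in edgeR).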
